A study of Mus musculus with 4 samples.

Results

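The four-member family of receptors for epidermal growth factor (EGF) and 6 of their ligands were followed across 4 single-colour Agilent gene expression arrays of E14Tg2A cells, an established mouse embryonic stem (ES) cell line of strain 129/Ola. Of the 35923 gene names on the array, the 10 genes of the family were the receptors Egfr, Erbb2, Erbb3 and Erbb4 and the ligands Hbegf, Areg, Ereg, Tgfa, Btc and Epgn. Every probe that the array files name for one of them was taken and kept apart, which gave 13 probes (7 for receptors, 6 for ligands) of the 55681 gene probes on the array. The family was chosen by its measured values, since Egfr was among the genes that rose most in CHQ over AZA. Its values in that comparison are therefore given as a description.

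Each group was 1 array, hybridised with RNA pooled from 3 experiments. ES cells (day 0, untreated) were grown in serum with leukaemia inhibitory factor. Epiblast-like aggregates (ELA, untreated) were ES cells kept as floating aggregates for 2 days in a chemically defined minimal medium without serum or that factor. The remaining groups were ELA of the same age formed with 50 nM 5-azacytidine (AZA), which traps DNA methyltransferases, or with 100 µM 5-carboxy-8-hydroxyquinoline (CHQ), a broad inhibitor of 2-oxoglutarate oxygenases that include histone lysine demethylases. The labels name no vehicle control for either agent. ES and ELA lay on 1 slide and AZA and CHQ on the other, so the effect of a treatment against ELA and that of the slide cannot be told apart, whereas ELA minus ES and CHQ minus AZA were each measured within a slide. Comparisons that share an array, such as CHQ minus ELA and CHQ minus AZA, are not independent of each other.

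Receptors of this family are tyrosine kinases that sit in the cell membrane and act in pairs. Binding of a ligand opens the receptor for pairing and starts signalling through RAS and ERK, PI3 kinase and STAT proteins. Erbb2 has no known ligand of its own and Erbb3 has little kinase activity, so both work with a partner. The ligands are made as membrane-bound precursors and are released by proteases. Amphiregulin (Areg), transforming growth factor alpha (Tgfa) and epigen (Epgn) bind Egfr, while Hbegf, epiregulin (Ereg) and betacellulin (Btc) also bind Erbb4. In the early mouse embryo the family is best known from implantation, placenta and epithelia.

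All values are log2 intensities after background correction and quantile normalisation. With 1 array a group no test between groups was possible. A difference was called when it reached 1 on the log2 scale, provided that the mean of the arrays compared reached 7.5 and that the scanner software marked the probe as well above background on either array; rose and fell are used only for such differences. The number of arrays limits the precision, and the measured error is that between spots of one probe on the same array, a technical error only. Over 399 probes printed as 5 or more spots the SD between spots was 0.15 in ES, 0.17 in ELA, 0.12 in AZA and 0.14 in CHQ. Of the family only Egfr probe 3, Erbb2 and Tgfa were printed as 10 spots. The other probes were printed once and have no measured error of their own. Levels are compared between arrays for the same probe or the same list of probes, never between probes. In these whole-culture pools, fewer cells that express a gene and less RNA per cell cannot be told apart.

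The 3 Egfr probes read different stretches of its transcripts, which is why the sequences of the first pair are shown; the Erbb3 and Areg probes are shown because they too had their highest level with CHQ. The deposited files place the probes on build mm9. Egfr probe 1 (chr11:16783556-16783615, plus strand) lies in sequence that the files assign to several Egfr transcripts, the short transcript variant 2 among them. Egfr probe 2 (chr11:16787172-16787231, plus strand) is assigned to variant 2 alone, which encodes a receptor without the kinase part, and it ends on an in-frame stop codon, shown in capitals. Egfr probe 3 (chr11:16813815-16813874, plus strand) lies far downstream and is assigned to the long transcript variant 1. The Erbb3 probe (chr10:128006424-128006483, minus strand) also ends on an in-frame stop codon, in capitals, and the Areg probe (chr5:91570090-91570149, plus strand) is the only one for its gene. An annotation of this build was not used here, so exon limits are not given.
Egfr probe 1: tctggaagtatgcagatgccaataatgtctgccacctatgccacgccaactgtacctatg
Egfr probe 2: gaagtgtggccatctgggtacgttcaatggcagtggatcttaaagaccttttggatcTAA
Erbb3: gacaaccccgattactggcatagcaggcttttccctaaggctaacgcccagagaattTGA
Areg: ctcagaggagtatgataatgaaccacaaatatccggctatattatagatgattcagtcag

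Egfr, the receptor for EGF itself, gave its highest level with CHQ on all 3 probes and its lowest in untreated ELA. When scaled to spike-in probes, AZA read lowest instead on probes 1 and 2 (AZA minus ELA -0.41 and -0.15). Probe 3, printed as 10 spots, read 10.33 ± 0.23 in ES, 8.51 ± 0.20 in ELA, 8.91 ± 0.16 in AZA and 12.93 ± 0.20 in CHQ (SD over 9 spots in ELA and over 10 spots on the other arrays). Single spots ran from 10.11 to 10.76 in ES, from 8.25 to 8.78 in ELA, from 8.72 to 9.20 in AZA and from 12.73 to 13.27 in CHQ. The order was thus ELA, AZA, ES and CHQ, and among neighbours in it the spots overlapped only between ELA and AZA. From ES to ELA the probe fell by 1.82 (3.53-fold), and the same spot compared on both arrays differed by -1.98 to -1.70 over 9 spots. CHQ minus AZA was 4.01 (16.1-fold), with an SD of 0.06 over 10 spots and a range of 3.90 to 4.10. CHQ minus ELA was 4.42 (21.4-fold, SD over 9 spots 0.12). AZA minus ELA was 0.41 (SD over 9 spots 0.13), which was not called.

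**Figure D1:**
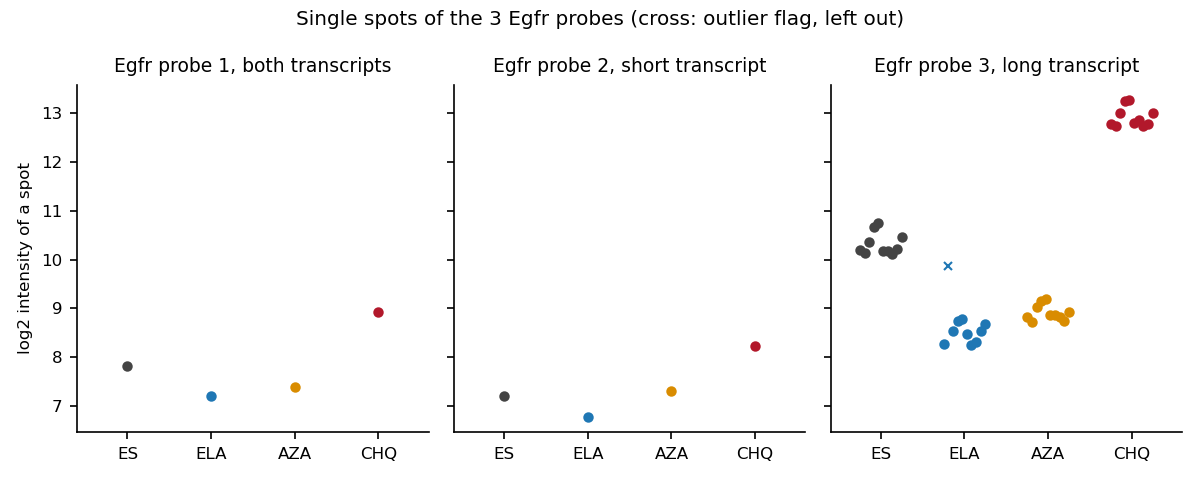
Log2 intensity of each spot (y axis) of the 3 Egfr probes on the ES, ELA, AZA and CHQ arrays (x axis), 1 panel per probe, with points for spots used and a cross for the ELA spot left out for its outlier flag. The 10 CHQ spots of probe 3 sit between 12.73 and 13.27, above those of the other arrays.

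The other Egfr probes, printed once each, also read highest with CHQ. Probe 1 read 7.82 in ES, 7.20 in ELA, 7.38 in AZA and 8.92 in CHQ. CHQ thus stood 1.73 (3.31-fold) over ELA and 1.54 (2.91-fold) over AZA, both called. Under alternative processing the call over ELA was lost in 2 of 6 cases, with differences of 2.69 and 2.15. That over AZA was lost in 1 of 7, with a difference of 1.91. ELA minus ES was -0.62 and AZA minus ELA 0.18, neither of them called. Probe 2, the probe of the short transcript alone, read 7.19 in ES, 6.78 in ELA, 7.30 in AZA and 8.23 in CHQ. It was not well above background in ELA. The measured difference of 1.45 between CHQ and ELA (2.73-fold) was called with a mean level just inside the limit of 7.5. This call was lost in 5 of 6 alternatives, with a difference of 0.72 under scaling to spike-in probes. CHQ minus AZA (0.92) was just outside the limit of 1. The CHQ difference over AZA was 4.01 on the probe of the long transcript, 1.54 on probe 1 and 0.92 on probe 2, all well above background on both arrays. The offset used in background correction makes differences of dim probes smaller. With the processed signal scaled to the 75th percentile of each array, which adds no offset, CHQ minus AZA was 2.18 on probe 1, 1.47 on probe 2 and 4.08 on probe 3.

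Erbb2, the ligandless partner receptor, fell with both agents against ELA, the array on which its level was highest. Its probe (chr11:98298103-98298162, plus strand; 10 spots) read 9.32 ± 0.12 in ES (SD over 9 spots), 10.16 ± 0.16 in ELA, 8.81 ± 0.12 in AZA and 9.06 ± 0.12 in CHQ. ELA held the highest level, with spots from 9.83 to 10.33 that overlapped no other array. The AZA spots (8.60 to 9.0) overlapped the CHQ spots (8.84 to 9.17), which in turn overlapped the ES spots (9.15 to 9.50). Erbb2 fell by 1.35 with AZA against ELA. It fell by 1.10 with CHQ against ELA, and both of these comparisons run across slides. ELA minus ES was 0.83 and CHQ minus AZA 0.25, neither of them called.

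Erbb3, the receptor with little kinase activity of its own, was higher with CHQ. Its probe, printed once, read 6.79 in ES, 7.07 in ELA, 7.08 in AZA and 8.51 in CHQ. ELA minus ES was 0.28 and AZA minus ELA 0.01. CHQ was 1.44 over ELA and 1.43 over AZA, both called, though both reached the level limit only through the CHQ level. Both calls were lost under 4 alternatives: in 3 of them the difference grew, to between 1.55 and 2.28, while the mean level fell under 7.5, and with scaling to spike-in probes CHQ minus ELA was 0.78 and CHQ minus AZA 1.41. Erbb4, a receptor for neuregulins and some EGF-like ligands, was well above background only in ELA. Its probe 1 (chr1:68086686-68086745, minus strand) read 6.04 in ES, 7.45 in ELA, 6.31 in AZA and 6.10 in CHQ. Set against the dimmest probe well above background on the other array, ELA was 1.92-fold over ES, 2.06-fold over AZA and 2.03-fold over CHQ. Such folds are not lower bounds, since some brighter probes were not well above background. In ELA the dimmest such probe read 6.74, while Egfr probe 2 at 6.78 was not well above background. Erbb4 probe 1 missed the level limit of 7.5 in every comparison. Erbb4 probe 2 (chr1:68078805-68078864, minus strand) read 5.99 to 6.16 and was not well above background on any array.

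**Figure D2:**
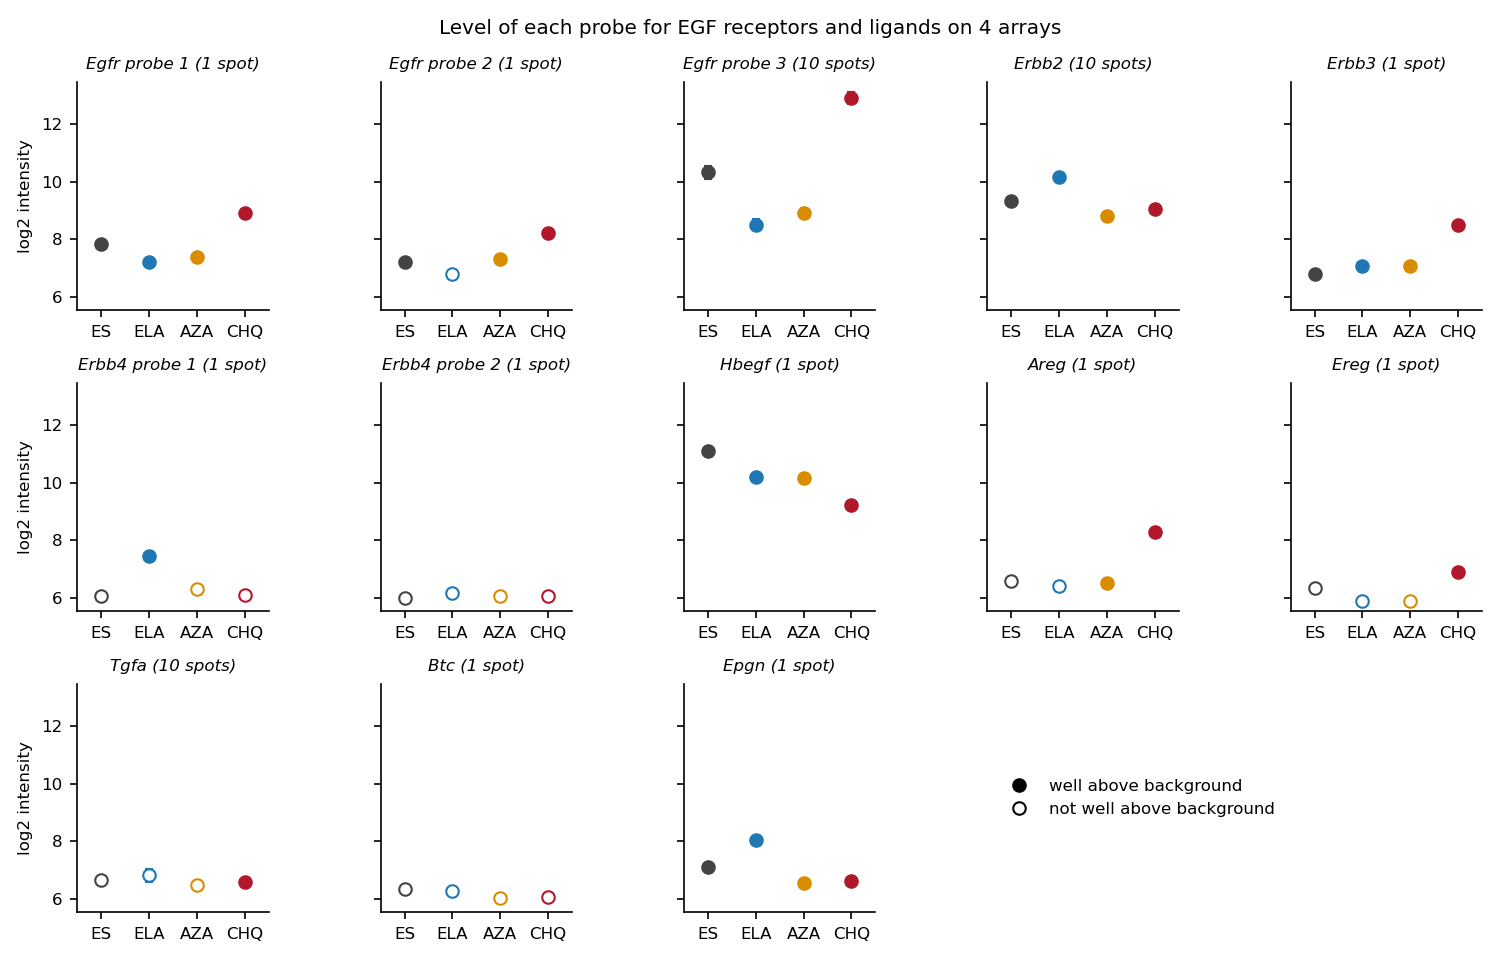
Log2 intensity (y axis) of each of the 13 probes on the ES, ELA, AZA and CHQ arrays (x axis), 1 panel per probe. Filled points were well above background, open points were not, and error bars are the SD over spots where a probe has 10; CHQ is the highest array for all 3 Egfr probes and for Erbb3, Areg and Ereg, and ELA for Erbb2, Epgn and Erbb4 probe 1.

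Among the ligands, Hbegf, a heparin-binding growth factor that also acts as a membrane-bound signal, was well above background throughout and had its lowest level with CHQ. It read 11.12 in ES, 10.19 in ELA, 10.16 in AZA and 9.23 in CHQ. Its probe was printed once and has no SD between spots. ELA and AZA, on different slides, differed by 0.03. The other steps were just outside the limit, at -0.93 for ELA minus ES, -0.96 with CHQ against ELA and -0.93 between CHQ and AZA, and were called in 2, 4 and 3 of the alternatives tried. Hbegf thus stood lowest on the array where Egfr, its main receptor, stood highest. From ES to ELA, however, both read lower, Hbegf at -0.93 (not called) and Egfr probe 3 at -1.82.

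Areg and Ereg had their highest level with CHQ, though Ereg not under spike-in scaling. The Areg probe read 6.59 in ES, 6.41 in ELA, 6.51 in AZA and 8.27 in CHQ, and was not well above background in ES or ELA. It was in AZA, though it read lower there than in ES. Its local background was 67 in ES, 75 in ELA, 17 in AZA and 16 in CHQ, so this mark is not alike between slides. CHQ was 2.89-fold over the dimmest probe well above background in ELA, which is not a lower bound. It was 1.76 (3.39-fold) over AZA, with both arrays well above background. Both comparisons missed the level limit, with mean levels of 7.34 and 7.39, and so were not called; over the alternatives CHQ minus AZA ran from 1.76 to 3.49 and CHQ minus ELA from 1.06, with spike-in scaling, to 4.39. Ereg (chr5:91522553-91522612) read 6.33 in ES, 5.88 in ELA, 5.89 in AZA and 6.91 in CHQ. It was well above background only in CHQ. Set against the dimmest probe well above background on the other array, CHQ was 1.12-fold over ELA and 1.41-fold over AZA. Neither fold of Ereg is a lower bound. Over the alternatives its CHQ minus ELA ran from 0.22, with spike-in scaling, to 3.11. ELA minus ES was -0.81 with that scaling, so Ereg then read higher in ES than in CHQ.

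Epgn (chr5:91464119-91464178) showed another pattern, with its highest level in ELA. It read 7.08 in ES, 8.04 in ELA, 6.53 in AZA and 6.62 in CHQ, well above background on all 4 arrays. ELA minus ES was 0.96, just outside the limit. AZA minus ELA was -1.51 and CHQ minus ELA -1.43, which missed the level limit, and CHQ minus AZA was 0.09. Tgfa (chr6:86224838-86224897; 10 spots) read 6.66 in ES, 6.81 in ELA, 6.48 in AZA and 6.56 in CHQ, with 3, 2, 5 and 9 of its spots well above background. Btc (chr5:91786948-91787007) read 6.02 to 6.34 and was not well above background on any array.

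Epgn, Ereg, Areg and Btc are neighbours on chromosome 5, where their probes span 322889 bases in that order. Between Epgn and Ereg lie 58374 bases, between Ereg and Areg 47477 and between Areg and Btc 216798. The adjacent Ereg and Areg shared the highest level with CHQ, Ereg not under spike-in scaling. Epgn, before them, differed by 0.09 between CHQ and AZA, and Btc, after them, was not well above background on any array. Within 250000 bases of these probes lay 10 others, and 2 of them passed the limits on level and background for CHQ minus AZA, both called higher, where 5.02% of all probes were (this window was chosen after the values were seen). These were Cxcl1, a chemokine, at 6.73 in ES, 6.80 in ELA, 6.87 in AZA and 8.98 in CHQ, which passed only through its CHQ level, and Mthfd2l, a mitochondrial folate enzyme, at 11.12 in ES, 11.93 in ELA, 8.84 in AZA and 9.87 in CHQ, a difference of 1.03 between CHQ and AZA.

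Of the 13 probes, 7 were well above background in ES, 7 in ELA, 8 in AZA and 10 in CHQ. Of all gene spots 60.6%, 55.1%, 69.1% and 69.2% were, in the same order. The median local background was 59, 77, 14 and 13, and the counts are not read as a result about the family. On all 4 arrays 6 probes were well above background, and 2 were on none. CHQ held the highest level for 6 probes (the 3 Egfr probes, Erbb3, Areg and Ereg), though not for Ereg with spike-in scaling. For ELA minus ES, 5 probes passed the limits on level and background (Egfr probes 1 and 3, Erbb2, Hbegf and Epgn), of which 1 was lower and 0 higher, where 5.63% of all probes that passed were lower and 4.07% higher. For AZA minus ELA, 3 passed (Egfr probe 3, Erbb2 and Hbegf), of which 1 was lower and 0 higher, beside 12.2% lower and 14.1% higher among all. For CHQ against ELA, 6 passed (the 3 Egfr probes, Erbb2, Erbb3 and Hbegf), of which 4 were higher and 1 lower, beside 14.2% and 12.7% of all. Nothing is read from this count, since it uses the CHQ array on which Egfr was chosen, and Egfr probes 1 and 2 and Erbb3 reached the level limit only through their CHQ level. Of the 4 higher, 3 are Egfr probes, which share a gene, and the split was 1 higher and 2 lower with the 75th percentile scaling or the table deposited by the authors, and 2 and 2 with spike-in scaling. For CHQ minus AZA, the comparison that chose Egfr, the same 6 passed, with 3 higher and 0 lower, beside 5.02% and 4.65% of all. Here too Egfr probes 1 and 2 and Erbb3 reached the level limit only through their CHQ level. Again nothing is read from the count, which was 2 higher and 1 lower with the 75th percentile or spike-in scaling. Over all 13 probes, passed or not, the median difference from ES to ELA was -0.07 (-0.02 over all probes on the array that passed). It was -0.03 with AZA against ELA (-0.10), -0.09 with CHQ against ELA (-0.11) and 0.25 between CHQ and AZA (-0.03).

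**Figure D3:**
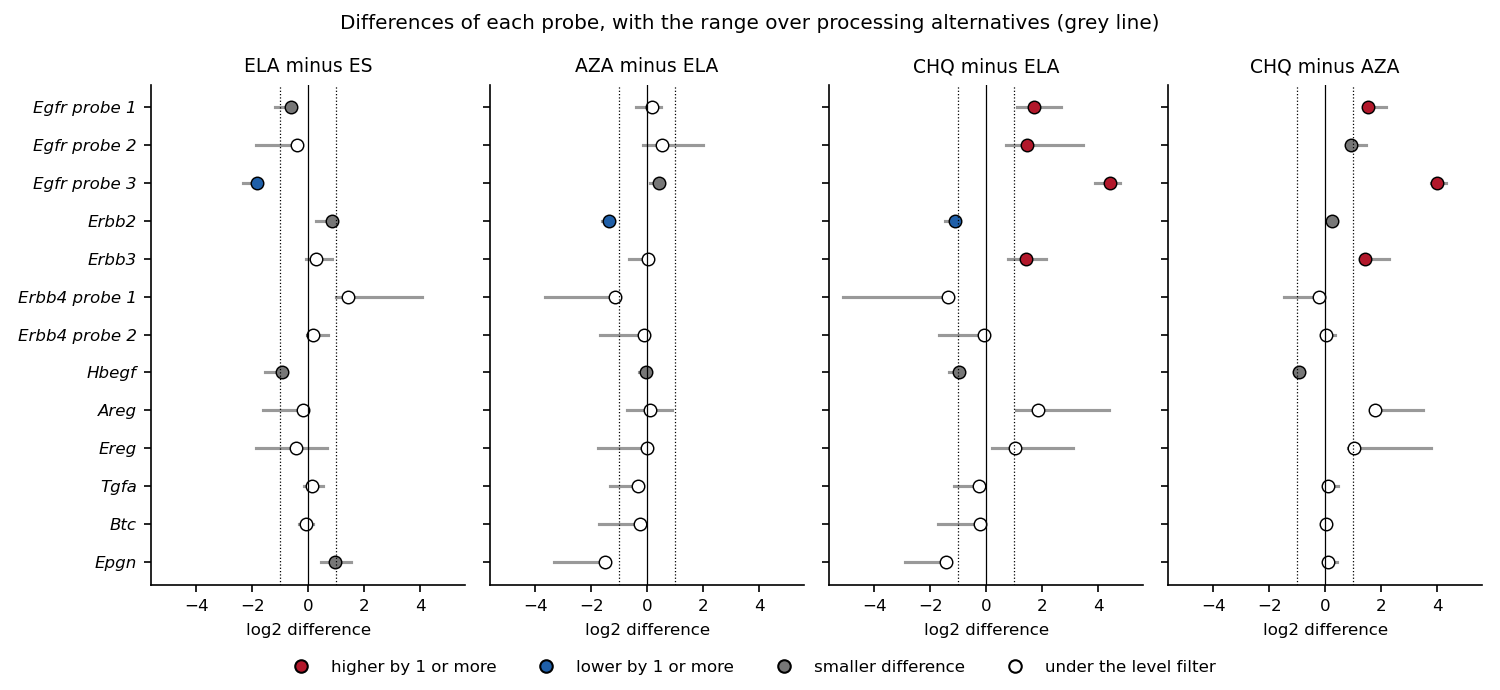
Log2 difference (x axis) of each of the 13 probes (y axis) in the 4 comparisons, 1 panel each, with the range over the alternative ways of processing as a grey line and limits of -1 and 1 dotted. Red points were called higher, blue lower, grey passed the level limit but not the difference limit, and open points missed the level limit; Egfr probe 3 lies at 4.42 and 4.01 in the panels with CHQ.

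The rest of the pathway was read from 6 lists of 84 genes in all, with 1 probe per gene, the one with the highest mean. The lists hold other ligands of the family, ligand release, signal relay, receptor inhibition and turnover, ERK feedback and immediate early targets. From ES to ELA 7 genes rose and 5 fell of the 74 that passed the level limit, where 4.46% of all genes rose and 5.59% fell. The medians in this paragraph are over all 84 genes, passed or not, and that from ES to ELA was 0.05. With AZA against ELA 8 rose and 12 fell of 70 (median -0.33), beside 14.2% and 11.4% of all. With CHQ against ELA 22 rose and 8 fell of 75 (median 0.23), beside 14.8% and 11.9% of all. With scaling to the spike-in probes these splits were 4 higher and 12 lower from ES to ELA, 3 and 20 with AZA, and 8 and 15 with CHQ, so that the splits from ES to ELA and with CHQ turned. For CHQ over AZA, within a slide, 13 rose and 0 fell of 73 (median 0.28), beside 5.53% and 4.81% of all genes, and the spike-in scaling gave 12 and 0.

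Among the other ligands, Nrg1, the neuregulin that binds Erbb3 and Erbb4, read 9.72 in ES, 9.77 in ELA, 8.17 in AZA and 10.84 in CHQ. It fell by 1.60 with AZA and rose by 1.07 with CHQ against ELA, and CHQ stood 2.67 over AZA. Nrg4, a ligand of Erbb4, read 8.26, 7.44, 8.22 and 9.44 on the same arrays in that order, so that CHQ was 1.99 over ELA and 1.21 over AZA, but its other probes differed by -0.97 and -0.22 between CHQ and AZA. Nrg2 was not well above background in ELA (6.71) and read 8.81 in CHQ, a difference of 2.10, while its other probe differed by -0.10. Egf itself read 7.20 to 7.57, and Nrg3 was not well above background on any array. Of the 5 genes of this list 3 passed the level limit with CHQ. Of these, 3 rose against ELA (14.8% of all genes) and 2 against AZA (5.53% of all genes). Nrg2 and Nrg4 (7.44 in ELA) passed against ELA only through their CHQ level.

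Of the 8 genes of ligand release, 7 passed the level limit for ELA minus ES and 6 in each other comparison. None was called for ELA minus ES (4.46% of all genes rose and 5.59% fell) or for CHQ minus AZA (5.53% and 4.81%). Against ELA 2 rose and 0 fell with AZA (14.2% and 11.4% of all genes), and 1 rose and 0 fell with CHQ (14.8% and 11.9%). Adam19, a metalloprotease, rose by 1.23 with AZA. Rhbdf2, an inactive rhomboid protein that carries the protease Adam17 to the surface, rose by 1.07 with AZA and by 1.35 with CHQ, both against ELA. Adam17, the main protease of these ligands, read 7.74 to 8.65 and was called in no comparison.

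Of the 28 genes that relay the signal, 25 passed the level limit in each comparison. Against ELA 3 rose and 2 fell with AZA (14.2% and 11.4% of all genes), and 5 rose and 3 fell with CHQ (14.8% and 11.9%). From ES to ELA 3 fell and 0 rose (5.59% and 4.46% of all genes): Stat3 (-1.55), the PI3 kinase subunit Pik3cb (-1.28) and the adaptor Gab1 (-1.05). Against ELA, Pik3cb rose by 1.78 with AZA and by 2.58 with CHQ, and Stat3 by 1.53 and 1.74, while the other Stat3 probe differed by 0.23 and 0.61. Stat5a rose by 1.98 with AZA and by 1.09 with CHQ. Mapk3, which encodes ERK1, was called lower with AZA (-1.33) and with CHQ (-1.81). Between CHQ and AZA 1 gene was called, the kinase Braf, 1.01 higher with CHQ (5.53% of all genes rose and 4.81% fell).

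Of the 16 genes of receptor inhibition and turnover, 1 rose and 0 fell from ES to ELA (4.46% and 5.59% of all genes), 1 rose and 3 fell with AZA against ELA (14.2% and 11.4%), and 4 rose and 3 fell with CHQ against ELA (14.8% and 11.9%). Of the 4 that rose with CHQ, Socs5 (7.29 in ELA) and Usp8 (7.43 in ELA) passed the level limit only through their CHQ level. The transmembrane inhibitor Lrig1 rose by 1.21 from ES to ELA. With AZA the adaptor Sh3kbp1 (-1.79), the phosphatase Ptpn1 (-1.73) and the ubiquitin ligase Cblb (-1.72) fell. The deubiquitinase Usp8 rose by 1.13 with AZA and by 1.32 with CHQ, and Cblb and Sh3kbp1 each fell by 1.32 with CHQ. Errfi1, which binds and blocks the Egfr kinase, read 12.80 in ES, 12.54 in ELA, 12.06 in AZA and 13.35 in CHQ. It was the 1 gene of this list called between CHQ and AZA, at 1.29, where 5.53% of all genes rose and 4.81% fell. Of the 11 genes of ERK feedback, 10 passed the level limit from ES to ELA, 9 with AZA and 10 with CHQ against ELA. From ES to ELA 1 rose and 1 fell (4.46% and 5.59% of all genes). Against ELA 0 rose and 1 fell with AZA (14.2% and 11.4%), and 1 rose and 2 fell with CHQ (14.8% and 11.9%). Spry4 fell by 1.15 and the phosphatase Dusp4 rose by 1.06 from ES to ELA. Spry2 fell by 1.01 with AZA. With CHQ against ELA Spred1 rose by 1.42, Spred3 fell by 1.58 and Dusp4 fell by 1.29. Between CHQ and AZA Spred1 was the 1 gene called of the 9 that passed, 1.48 higher with CHQ (5.53% of all genes rose and 4.81% fell).

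The immediate early targets, genes that many stimuli besides EGF switch on within a short time, gave the highest count of the 6 lists between CHQ and AZA. From ES to ELA 5 rose and 1 fell of the 15 that passed (4.46% and 5.59% of all genes). With AZA 2 rose and 5 fell of 13 (14.2% and 11.4%), and with CHQ against ELA 8 rose and 0 fell of 15 (14.8% and 11.9%). For CHQ over AZA 8 rose and 0 fell of the 15 that passed (5.53% and 4.81%). The median over all 16 genes of the list, passed or not, was 1.07, beside -0.02 over all genes on the array that passed. Atf3 read 8.62 in ES, 9.37 in ELA, 8.47 in AZA and 11.57 in CHQ, 3.1 higher in CHQ than in AZA. Fosb read 7.73 in ES, 10.18 in ELA, 7.81 in AZA and 10.54 in CHQ, so that it rose by 2.45 from ES to ELA, fell by 2.37 with AZA and stood 2.73 higher with CHQ than with AZA. Egr2 read 7.48 in ES, 10.40 in ELA, 8.66 in AZA and 11.22 in CHQ, a rise of 2.92 from ES to ELA, a fall of 1.74 with AZA and 2.55 between CHQ and AZA. For Fosb and Egr2 the ELA and CHQ arrays were thus the high ones. Fosl1 was lowest in ELA, at 8.0 in ES, 7.27 in ELA, 8.75 in AZA and 9.91 in CHQ. It gave the largest CHQ minus ELA difference of the list (2.64), but passed the level limit of 7.5 there only through its CHQ level.

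**Figure D4:**
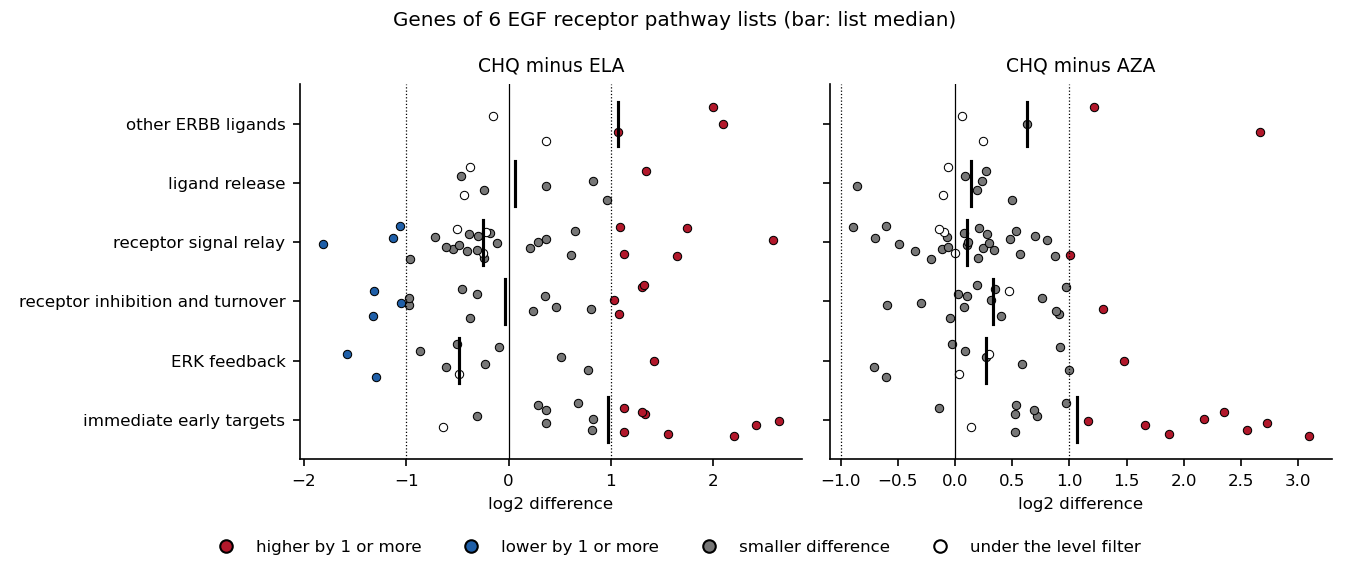
Log2 difference (x axis) of the genes of the 6 pathway lists (y axis) for CHQ minus ELA (left) and CHQ minus AZA (right), 1 point per gene, bars at the median of each list and dotted lines at -1 and 1. Points are coloured as called higher (red), lower (blue), smaller (grey) or under the level limit (open); between CHQ and AZA no gene of these lists was called lower.

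The genes whose pattern over the 4 arrays was most like that of Egfr probe 3 were found by the Euclidean distance between log2 profiles, each centred on its own mean, among 20695 genes well above background on all 4 arrays. They were Itga8, an integrin subunit (distance 0.38), Pla2g4a, a cytosolic phospholipase (0.83), Csn3, a casein (1.18), Cd209d, a C-type lectin (1.22), and Nlrc5 (1.22). Itga8 read 8.78 in ES, 7.19 in ELA, 7.72 in AZA and 11.25 in CHQ. A profile of 4 values is short, and the first 2 of these arrays lie on another slide than the last 2.

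The pluripotency genes Pou5f1 and Sox2 were well above background on all 4 arrays. Of 6 genes of the ground state, such as Klf4 and Zfp42, 6 fell from ES to ELA (5.59% of all genes), 6 rose with AZA (14.2%) and 5 rose with CHQ (14.8%) against ELA; the other Nanog probe differed by 0.23 for ELA minus ES and by -1.55 for AZA minus ELA. Between CHQ and AZA, where 5.53% of all genes rose and 4.81% fell, 0 of them rose and 3 fell. These were Nanog (-2.85, its other probe 0.53), Esrrb (-2.01) and Nr0b1 (-1.12). Of 5 primed genes 2 rose and 0 fell from ES to ELA (4.46% and 5.59% of all genes). Against ELA 0 rose and 3 fell with AZA (14.2% and 11.4%), and 0 rose and 2 fell with CHQ (14.8% and 11.9%). Between CHQ and AZA 2 primed genes rose, Fgf5 (1.39) and Pou3f1 (1.84), and 0 fell. Of 5 early neural genes 4 passed the level limit against ELA with either agent. Of these, 3 fell and 0 rose with AZA (11.4% and 14.2% of all genes). CHQ gave 3 lower and 0 higher (11.9% and 14.8%). Of 6 fibroblast genes 4 passed against ELA. AZA gave 1 higher and 2 lower (14.2% and 11.4% of all genes), and CHQ 0 higher and 2 lower (14.8% and 11.9%). Of 5 mesoderm genes 1 passed against ELA with either agent and 0 were called, beside the same shares. Of 9 primitive endoderm genes, 7 passed the level limit for CHQ against ELA. Of these, 3 rose and 3 fell (14.8% and 11.9% of all genes), and 2 of the risers, Gata6 and Sox17, passed only through their CHQ level. Between CHQ and AZA 5 passed, of which 2 rose and 1 fell (5.53% and 4.81% of all genes). Foxa2 (-1.01, its other probe -0.39), Dab2 (-1.34) and Amn (-1.34) fell with CHQ against ELA, and Amn also against AZA (-1.35). Among the defining genes, Gata4 read 7.70 in AZA and 7.73 in CHQ, and was not called. Gata6 (6.41 in ES, 6.69 in ELA, 8.06 in AZA and 9.89 in CHQ) and Sox17 (6.37 in ES, 6.76 in ELA, 7.76 in AZA and 9.51 in CHQ) were not well above background in ES or ELA. The log2 of the summed level of that list was 10.79 in ES, 10.94 in ELA, 11.34 in AZA and 11.75 in CHQ. Of 9 trophoblast genes, 5 passed for CHQ against ELA, of which 3 rose and 2 fell (14.8% and 11.9% of all genes). The risers were Tfap2c, Ascl2 and Krt7, while Krt8 (-1.20) and Krt18 (-2.23) fell. Between CHQ and AZA 6 passed, of which 1 rose and 0 fell (5.53% and 4.81% of all genes). The riser was Tfap2c, at 11.90 in AZA and 13.23 in CHQ. The log2 of the summed level of this list, in which the brightest probes weigh most, was 16.97 in ES, 16.47 in ELA, 15.53 in AZA and 15.45 in CHQ. The list median was 9.11 in ES, 8.73 in ELA, 9.60 in AZA and 10.05 in CHQ, and 8, 5, 7 and 8 of the 9 genes were well above background. Cdx2 was not well above background in ELA, AZA or CHQ, whereas Gata3 (8.26 in ES, 7.26 in AZA and 7.57 in CHQ) and Hand1 (7.63 in ES, 7.56 in AZA and 7.87 in CHQ) were on every array but ELA, and Elf5 (6.53) only in CHQ. The part of such cells in the levels of the EGF receptors and ligands was not tested. The arrays themselves differed between slides, with a median local background of 59 in ES, 77 in ELA, 14 in AZA and 13 in CHQ, and with 60.6%, 55.1%, 69.1% and 69.2% of gene spots well above background in the same order; no spot was saturated.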

How the data were processed

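RNA pooled from 3 experiments per group was hybridised to 4 single-colour Agilent arrays, and the authors deposited scanner files with intensity values per spot and a table of log2 values. Extraction was by Agilent Feature Extraction, version 10.7.3.1 per the file headers and 9.1 in the submitters' processing notes. Spot intensity (mean signal and median local background) was corrected with normexp at an offset of 50 and quantile-normalised over the 4 arrays with limma 3.58.1 in R 4.3.3. Control spots and spots with an outlier flag were left out, log2 values of spots of one probe were averaged, and a probe with several spots counted as well above background if most of them were. Of 55681 gene probes, 559 had no usable spot on some array. The deposited log2 table, used as an alternative, correlated with normexp values at an offset of 0 with r from 0.9991 to 0.9994 per array; how it treats offset and repeated spots is not given in the sources used here. The size limits follow the methods of the study. The offset raises dim probes, so a difference between dim values understates the change. The limits on difference and level were tested on simulated data with noise of spots and background only. The simulation left out the condition on background and any variation between pools. It cannot give the rate of false calls between single arrays. The family, the 6 pathway lists and the 8 marker lists were chosen with earlier results of these data known. Beside the family, at most 3 called genes with the largest difference were named from each pathway list and comparison. A gene so named may be given in other comparisons too. The 5 genes nearest to Egfr probe 3 and marker genes were also named. Egf, Nrg3, Adam17, Socs5, Cxcl1 and Mthfd2l were named after their values were seen. Gene names, transcripts and mm9 positions are those in the array files. An array with a knock-down named in the labels' protocols was not analysed here.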

Additional observations from a re-analysis of the deposited data

How the results depend on the processing

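Across 338 values of single probes under alternative processing 0 changed direction among called differences, 311 kept their side of the limits, 16 lost a call and 11 gained one. Most of these values belong to differences that were not called, since of 13 probes only 1, 1, 5 and 3 were called in the 4 comparisons. Keeping outlier spots also leaves probes printed once unchanged. The 311 are therefore no measure of how steady the calls are. The Egfr probe 3 differences ran from -2.34 to -1.68 from ES to ELA, from 3.89 to 4.76 between ELA and CHQ, and from 3.79 to 4.31 between AZA and CHQ. The number of probes called for ELA minus ES (1) was 2 with processed signals scaled to the 75th percentile, 2 with spike-in scaling and 2 without a filter on dim probes. Without that filter it was 3 with AZA against ELA (1), 9 with CHQ against ELA (5) and 5 between CHQ and AZA (3). For CHQ minus ELA it was 3 with the 75th percentile (1 higher, 2 lower), 3 with the deposited table (1 higher, 2 lower) and 4 with spike-in scaling (2 higher, 2 lower), beside 4 higher and 1 lower. For CHQ minus AZA the split of 3 higher and 0 lower was 2 and 1 with the 75th percentile or spike-in scaling and 1 and 1 with the deposited table. With the 75th percentile and with the deposited table Egfr probes 1 and 2 and Erbb3 fell under the level limit of 7.5 for CHQ against ELA, and with no offset Egfr probe 2 and Erbb3 did, with differences over 1 in each case. The Egfr probe 2 call was also lost without background correction and with spike-in scaling (0.72), and that of Erbb3 with spike-in scaling (0.78). Between CHQ and AZA the call of Egfr probe 1 was lost with the deposited table, at a difference of 1.91. Spike-in scaling rests on 7 of 10 spike-in probes and moved the median of all tested probes to -0.60 from ES to ELA, -0.48 with AZA against ELA, -0.65 with CHQ against ELA and -0.20 between CHQ and AZA. With it the pathway genes split, in that order, into 4 higher and 12 lower, 3 and 20, 8 and 15, and 12 and 0. The 75th percentile moved the median to -0.22 with AZA and -0.27 with CHQ against ELA. No paired analysis was possible because each group has 1 array, and no replicate could be left out for the same reason.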
